A study of Mus musculus with 32 samples.

Results

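The comparison described here was the genotype by fibroblast interaction in tendon core explants, that is, whether core explants from IL-6 knock-out (KO) mice responded to neighboring fibroblasts differently from core explants of wildtype (WT) mice. For each gene, it was computed as the log2 fold change between cores beside fibroblasts and cores beside a cell-free hydrogel in KO cores, minus the same log2 fold change in WT cores. It used 16 of the 32 samples of the series, namely the core compartments of 4 assembloid combinations with n = 4 each. WT and KO cores were each cultured beside a cell-free hydrogel (WT core // cell-free and KO core // cell-free) or beside a fibroblast-laden one (WT core // fibroblasts and KO core // fibroblasts). All genes that could be tested belonged to the comparison.

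The core explants were pools of tail tendon fascicles from adult male and female B6.129S2-Il6tm1Kopf/J mice, each pool taken from a single mouse that was labelled Il-6+/+ or Il-6-/-. In all 4 groups, the fascicles were clamped in a collagen-1 hydrogel, and the tension on them was released once it had set. They were cultured for 7 days in medium that contained serum and macrophage-colony stimulating factor. The hydrogel was either cell-free or seeded with cells from Achilles tendons, which the labels call progenitors and the study calls fibroblasts. These cells were Il-6+/+ beside both kinds of core and were mixed from several mice, so that the Il-6-/- label of an assembloid applied to its core only. After 7 days, the core and the hydrogel were separated and the total RNA of the core was sequenced after ribosomal depletion. A separated core holds its resident cells and whatever cells have moved into it from the hydrogel.

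IL-6 is a cytokine that signals through its receptor, the shared subunit gp130 (Il6st) and the transcription factor STAT3, either in cells that carry the receptor or in others by way of a soluble receptor. In injured tendon, fibroblasts of the surrounding tissue are known to migrate toward the load-bearing core, proliferate and deposit collagen there. An interaction near 0 means that a gene responded to fibroblasts to the same degree in both genotypes. A negative value means a lower response in KO cores, and a positive value a higher one. Response here is the log2 fold change of the whole separated core, including any Il-6+/+ cells that entered from the hydrogel. A difference between the genotypes beside cell-free hydrogels enters the value as well. The part of entered cells in it was not tested.

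The sequencing depth was 20.6 to 41.9 M counts per library (median 28.7 M, where M stands for mega), and levels are given in CPM, that is, as counts scaled to a library of 1 M. Low-count genes were dropped, and edgeR's quasi-likelihood test was run on the other 16772. The defining genes of tenocytes were high in every group, with a summed level between 31600 and 65200 CPM for 10 markers. Leukocyte markers were present too. Their summed level ranged from 10600 to 14600 CPM in WT core // cell-free and from 6760 to 21100 CPM in the 4 KO core // cell-free libraries. Beside fibroblasts, it ranged only from 9810 to 10500 CPM in WT cores and from 8870 to 10700 CPM in KO cores. KO core // cell-free replicate 1 held the highest of these sums, and a fit with library weights gave it the lowest weight of all libraries (0.148). Libraries with the same genotype and replicate number deviated together from their group means (correlations of 0.19 to 0.57 over genes), and Y-linked genes marked both as coming from a mouse of the same sex. They were therefore read as pairs of 1 cell-free and 1 fibroblast core, and the values of a paired fit are given where they change a call.

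Il6 itself was counted in all 16 libraries. Its level was 7.27, 1.92, 11.8 and 3.9 CPM in WT core // cell-free replicates 1 to 4 and 6.29, 12.1, 5.1 and 9.56 CPM in WT core // fibroblasts. In the cores labelled KO, it was 7.19, 8.98, 6.58 and 20.8 CPM beside cell-free hydrogels and 10.6, 15.8, 17.5 and 38.2 CPM beside fibroblasts. The ranges of the genotypes overlapped beside cell-free hydrogels, and the genotype labels were therefore not borne out by the level of the targeted gene. Counts per gene cannot tell transcripts of a disrupted allele from intact ones, and whether these cores made functional Il6 transcripts was not tested with them. The study also assayed IL-6 protein in culture supernatants, a measurement that was not used here. "KO" means "labelled KO" throughout. The interaction for Il6 was 0.52 (95% interval -0.996 to 2.03), with an adjusted p of 0.985 from edgeR.

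No gene passed the interaction test. Of the 16772 genes, 0 (0%) had an adjusted p under 0.05 together with a log2 fold change beyond 0.5, and the lowest adjusted p from edgeR was 0.985. An unadjusted p under 0.05 was found for 504 genes, fewer than the 838.6 that an even spread of p-values would give. Of these, 232 (1.38% of the genes tested) lay above 0 and 272 (1.62%) below. With the additional fold change threshold, 142 genes above 0 and 152 below 0 remained at an unadjusted p under 0.05. With the pairs as blocks, 0 genes passed as well and the lowest adjusted p from edgeR was 0.964, with 667 genes at an unadjusted p under 0.05, of which 443 also passed the fold change threshold. DESeq2 and limma with library weights each called 1 gene, Nxpe5, which is described further on.

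**Figure D1:**
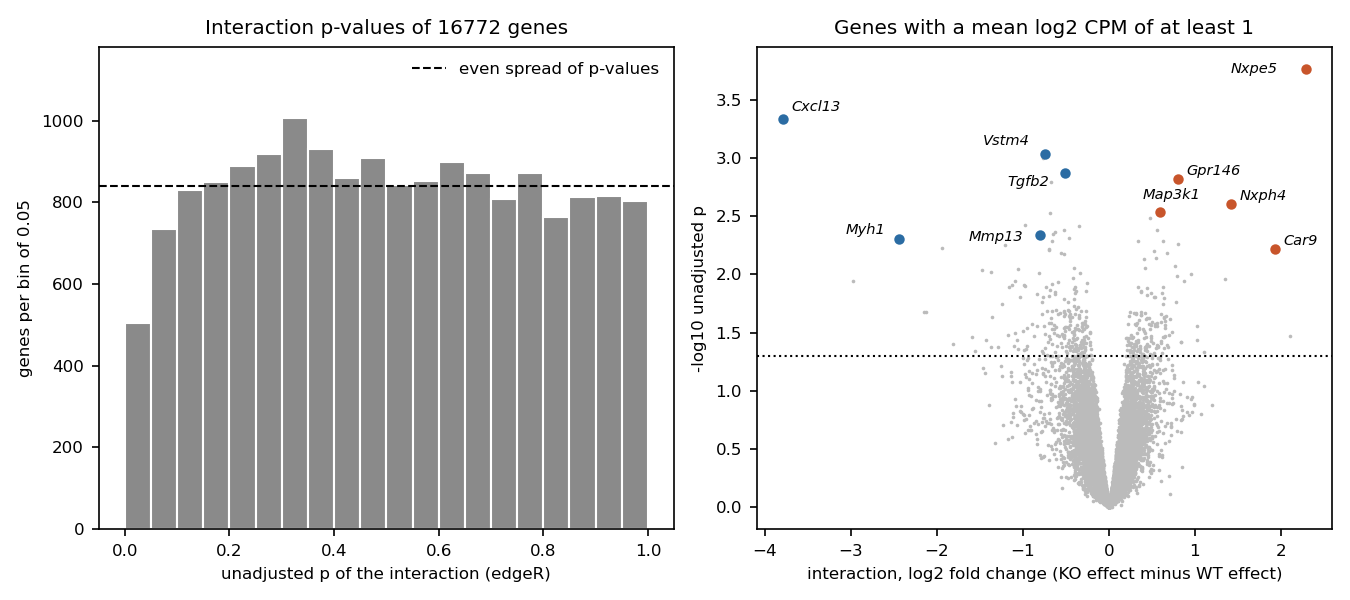
Left, histogram of the unadjusted interaction p-values from edgeR in bins of 0.05, with the dashed line at the height of an even spread; the lowest bin holds 504 genes against 838.6. Right, each gene with a mean log2 CPM of at least 1 by its interaction (log2 fold change in KO cores minus that in WT cores) and the -log10 of its unadjusted p, with the dotted line at 0.05 and 10 named genes in color. Cxcl13 lies lowest and Nxpe5 highest on the horizontal axis among the named genes, and 0 passed after adjustment.

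Among the 13290 genes with a mean log2 CPM of at least 1, the median standard error of the interaction was 0.18, and the 95% interval lay within -1 to 1 for 11824 genes (89.0%). For the other genes of that level, the interval reached a log2 difference of 1 or more in at least one direction. An interaction whose interval spans 0 was not detectable with 4 libraries a group, which is not the same as its being absent.

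Each genotype on its own did respond. In WT cores, 157 genes (0.936%) rose beside fibroblasts and 43 (0.256%) fell at an adjusted p under 0.05 from edgeR with a log2 fold change beyond 0.5. In KO cores, 182 genes (1.09%) rose and 121 (0.721%) fell. The WT and KO responses shared no library. Of the 157 genes that rose in WT cores, 155 had a log2 fold change above 0 in KO cores as well and 63 passed there too, which is 40.1% of the WT genes and 34.6% of the KO genes. Their median log2 fold change was 0.96 in WT cores and 0.70 in KO cores. For the 182 genes that rose in KO cores, the medians were 1.04 in KO and 0.73 in WT cores. Each of these sets was thus higher where it had been chosen, and a set chosen by its own threshold is no measure of which genotype responded more. Of the genes that fell, 19 passed in both genotypes (44.2% of those in WT and 15.7% of those in KO cores), and the 121 that fell in KO cores had a median of -1.13 there and of -0.65 in WT cores.

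Matrix metalloproteinases degrade the collagen-rich matrix of tendon. Mmp13 (collagenase 3, which cleaves fibrillar collagen) read 2240, 2510, 2880 and 3000 CPM in WT core // cell-free replicates 1 to 4 and 4660, 3950, 4960 and 6070 CPM in WT core // fibroblasts. In KO cores, it read 3280, 3330, 3960 and 2720 CPM beside cell-free hydrogels and 3250, 3590, 3060 and 4150 CPM beside fibroblasts. Every WT core beside fibroblasts was thus above every WT core without them, whereas the KO groups overlapped. Mmp13 rose in WT cores (log2 fold change 0.89, adjusted p of 0.0254 from edgeR), and its log2 fold change in KO cores was 0.08 (adjusted p of 0.863). The interaction was -0.81 (95% interval -1.32 to -0.29, adjusted p of 0.985 from edgeR). An exact permutation test (two-sided) of this 1 gene over 4900 arrangements of the genotype labels within each hydrogel gave p = 0.00367, and one over the 70 arrangements of the 8 pairs gave p = 0.0286, the smallest it can give. Here and below, the test over 4900 arrangements relabels the cores of a pair separately. It also assumes that genotype has no effect beside either hydrogel. Only the test over 70 arrangements keeps the pairs together. Mmp13 was also among the genes with the lowest p, so neither test is independent of how it came to be described.

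Mmp3 (stromelysin-1, which degrades proteoglycans and activates other metalloproteinases) read 11300, 8830, 12100 and 11700 CPM in WT core // cell-free and 13800, 17000, 16600 and 19900 CPM in WT core // fibroblasts. In KO cores, the levels were 15200, 10200, 11000 and 17700 CPM beside cell-free hydrogels and 16500, 22200, 16900 and 36100 CPM beside fibroblasts. It was higher beside fibroblasts in 4 of 4 pairs of both genotypes, and its interaction was 0.14 (95% interval -0.68 to 0.97, adjusted p of 0.985 from edgeR) and -0.16 without KO core // fibroblasts replicate 4. Mmp9 (gelatinase B) had an interaction of -0.08, but with a 95% interval of -1.32 to 1.16 its direction was not resolved, and without single libraries the value ranged from -0.37 to 0.23. It read 13.4, 35.0, 41.8 and 39.3 CPM and then 137, 67.8, 83.4 and 63.0 CPM in WT cores without and with fibroblasts, against 30.1, 54.7, 33.9 and 56.2 CPM and then 158, 174, 75.2 and 41.7 CPM in KO cores. Over all 42 matrix proteases tested, the median interaction was -0.11 and 17 lay above 0. An unadjusted p under 0.05 was reached by 2, both below 0 (1.62% of all genes). These were Mmp13 and Ctsk (cathepsin K, a collagen-degrading lysosomal protease), whose interaction was -0.87 (95% interval -1.67 to -0.07). Ctsk was at -0.54 without KO core // cell-free replicate 1, which read 560 CPM against 249 to 313 CPM in the rest of its group. The median of the list was -0.050 without WT core // cell-free replicate 1.

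The starts of Mmp13 and Mmp3 both carry a match to the AP-1 motif, the binding sequence of the Fos and Jun family of immediate early transcription factors, and they are printed for these neighboring metalloproteinase genes on chromosome 9, whose interactions were not tested against each other. Shown are the 250 bases before the gene start on the plus strand, from RefSeq on GRCm38.p6 (Mmp13 at chr9:7272264-7272513, Mmp3 at chr9:7445572-7445821), with the match in capitals.
Mmp13: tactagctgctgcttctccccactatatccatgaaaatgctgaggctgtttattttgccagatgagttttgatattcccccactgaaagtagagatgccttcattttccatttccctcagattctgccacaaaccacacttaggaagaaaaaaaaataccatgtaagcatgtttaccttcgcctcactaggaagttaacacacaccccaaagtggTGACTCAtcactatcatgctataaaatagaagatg
Mmp3: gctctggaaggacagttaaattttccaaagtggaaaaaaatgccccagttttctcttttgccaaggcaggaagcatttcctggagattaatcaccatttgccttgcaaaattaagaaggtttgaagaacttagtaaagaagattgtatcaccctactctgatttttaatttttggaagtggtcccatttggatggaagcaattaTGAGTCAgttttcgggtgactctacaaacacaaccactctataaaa

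The motif was searched as TGAGTCA or TGACTCA, which are the same site read from either strand. It began 35 bases before the start of Mmp13 and 46 bases before that of Mmp3, and 4.46% of all 32851 windows of this length held it. A match describes the letters only.

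Genes of collagen and matrix synthesis had a lower median interaction than genes at large, whose median was -0.00. Of 36 genes of collagen and matrix synthesis, 28 lay below 0, with a median interaction of -0.20. Their median response was 0.59 in WT cores and 0.18 in KO cores. At an adjusted p under 0.05 from edgeR, 8 members rose in WT cores and 5 in KO cores. Of all genes, 0.936% rose in WT and 1.09% in KO cores, shares that also required a log2 fold change beyond 0.5. The member counts did not require it. The pair medians of the genotypes overlapped, at 0.875, 0.25, 0.86 and 0.20 in WT pairs 1 to 4 and 0.40, 0.39, 0.01 and 0.25 in KO pairs. The median interaction was -0.33 without WT core // cell-free replicate 4 and -0.10 without KO core // fibroblasts replicate 3. Of the 36 members, 2 reached an unadjusted p under 0.05 for the interaction, both below 0 (1.62% of all genes). After adjustment, 0 passed, here as in every other list described. Col3a1, the collagen chain of early scar tissue, read 5780, 4430, 5670 and 5300 CPM in WT core // cell-free and 13600, 8520, 11400 and 11900 CPM in WT core // fibroblasts. KO cores held 7980, 6350, 4920 and 4520 CPM without and 10900, 12700, 6040 and 9040 CPM with fibroblasts. It was higher beside fibroblasts in all 8 pairs, and it rose in WT cores (log2 fold change 1.10, adjusted p of 0.0417 from edgeR) but did not pass in KO cores (0.70, adjusted p of 0.170). The difference itself was -0.40, with a 95% interval of -1.14 to 0.34 that spans 0, and its exact permutation tests (two-sided) gave p = 0.247 over 4900 arrangements of the libraries and p = 0.114 over 70 arrangements of the pairs. A call in one genotype and none in the other did therefore not show a different Col3a1 response.

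Col1a1, the main collagen chain of tendon, was higher beside fibroblasts in 4 of 4 WT pairs and 2 of 4 KO pairs, with an interaction of -0.56 (95% interval -1.52 to 0.40). Serpinh1, the chaperone that collagens need to fold, had the lowest p of this list. It read 919, 1080, 973 and 1450 CPM in WT core // cell-free, 1720, 1280, 2000 and 1620 CPM in WT core // fibroblasts, 1780, 1210, 1300 and 1150 CPM in KO core // cell-free and 1390, 1520, 1060 and 1230 CPM in KO core // fibroblasts. All 4 WT pairs moved upward and the KO pairs split evenly, with an interaction of -0.64 (95% interval -1.20 to -0.08, adjusted p of 0.985 from edgeR). Col14a1, a fibril-associated collagen, had an interaction of -1.60 (-3.06 to -0.13), and Tnc (tenascin-C), a glycoprotein of injured and developing tendon, one of -0.67 (-1.46 to 0.11).

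Proteoglycan and elastic fibre genes had a median interaction of -0.29 over 30 genes, of which 24 lay below 0, and it was -0.45 without WT core // cell-free replicate 4 and -0.19 without WT core // fibroblasts replicate 1. Their median response was 0.40 in WT cores and 0.01 in KO cores. The 3 members with an unadjusted p under 0.05 were Mfap2 and Mfap4, 2 microfibril-associated glycoproteins, and Dpt (dermatopontin), which binds decorin and collagen. All 3 lay below 0, where 1.62% of all genes lay at such a p. Mfap2 read 21.7, 27.3, 30.2 and 28.0 CPM in WT core // cell-free and 30.9, 27.8, 43.1 and 40.9 CPM in WT core // fibroblasts. In KO cores, the levels were 37.6, 34.2, 27.0 and 28.2 CPM without and 27.4, 35.1, 24.3 and 27.0 CPM with fibroblasts. The WT cores were higher beside fibroblasts in 4 of 4 pairs and the KO cores in 1 of 4, for an interaction of -0.57 (95% interval -1.05 to -0.10). Mfap4 and Dpt had interactions of -1.37 (-2.69 to -0.05) and -1.55 (-3.07 to -0.04). Kera, the small leucine-rich proteoglycan keratocan, followed at -1.26 (-2.58 to 0.06). Without KO core // cell-free replicate 1, which read 407 CPM for Dpt against 64.3 to 132 CPM in the rest of its group, Dpt was at -0.64 and Kera at -0.68. Mfap4 was at -0.81 without WT core // fibroblasts replicate 3. Protease inhibitors had a median interaction of -0.32 over 17 genes, 12 of them below 0, and of -0.48 without WT core // cell-free replicate 4 and -0.21 without KO core // cell-free replicate 1. The 1 inhibitor with an unadjusted p under 0.05 (1.38% of all genes above 0) was Spint1, a membrane-bound inhibitor of serine proteases. It lay above 0 at 2.27 (0.01 to 4.54). Its level was very low, with group means of 0.69 and 0.085 CPM in WT cores without and with fibroblasts. In KO cores, the means were 0.51 and 0.32 CPM, so the mean level was lower beside fibroblasts in both genotypes.

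Markers of repair fibroblasts, the contractile and matrix-producing cells of scars, had the lowest median among the lists of matrix and fibroblast genes. The median interaction was -0.37 over 20 genes, of which 15 lay below 0. An unadjusted p under 0.05 was reached by 5, all 5 of them below 0 (1.62% of all genes). Their median response was 0.33 in WT cores and -0.01 in KO cores, yet 0 members rose or fell in either genotype at an adjusted p under 0.05 from edgeR. Cthrc1, a secreted marker of scar-forming fibroblasts, read 4.90, 8.71, 7.54 and 14.2 CPM in WT core // cell-free and 14.6, 13.1, 17.4 and 13.2 CPM in WT core // fibroblasts. In the KO groups, the level was 16.1, 9.63, 14.6 and 9.08 CPM without and 8.74, 9.88, 11.3 and 9.34 CPM with fibroblasts. It was higher beside fibroblasts in 3 of 4 WT pairs and 2 of 4 KO pairs, and its interaction was -1.06 (95% interval -1.81 to -0.30, adjusted p of 0.985 from edgeR). The others named by the rule were Lrrc15, a surface marker of activated fibroblasts, at -2.13 (-3.89 to -0.36), Lrrc17 at -1.36 (-2.33 to -0.39), and Acta2, the actin of myofibroblasts and smooth muscle, at -1.06 (-2.09 to -0.03). Lrrc15 was at -1.21 without KO core // cell-free replicate 3 and Acta2 at -1.61 without WT core // cell-free replicate 4. The level of Lrrc17 was low, with group means of 0.81 and 1.83 CPM in WT cores without and with fibroblasts. In KO cores, the means were 1.34 and 1.24 CPM. With 1 library left out, Lrrc17 ranged from -1.65 to -0.95. Cdh11, an adhesion molecule of fibroblasts, was the fifth at -0.63 and was named after its value was seen. Adam12, a membrane metalloprotease of the same list, stood at -0.67 (-1.37 to 0.02), and its 4 KO pairs all lay below its 4 WT pairs. Genes of the paratenon, the sheath around tendon, had a median of -0.29 over 20 genes, which was -0.19 without KO core // fibroblasts replicate 2 and -0.04 without both KO core // cell-free replicate 1 and WT core // cell-free replicate 4.

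The median interaction of 23 tendon lineage genes was -0.15, with 7 above 0. It was -0.33 without WT core // cell-free replicate 4 and -0.10 without WT core // fibroblasts replicate 4. Scx (scleraxis), the transcription factor that marks the tendon lineage, read 11.7, 12, 10.8 and 12.5 CPM in WT core // cell-free and 30.3, 17.3, 27.6 and 15.4 CPM in WT core // fibroblasts. Its level in KO cores was 19.2, 13.8, 15.7 and 9.16 CPM without and 20.9, 18.6, 14.4 and 16.7 CPM with fibroblasts. The 4 cell-free WT cores lay within a narrow range below all 4 WT cores with fibroblasts, whereas the KO groups overlapped. Scx rose in WT cores (log2 fold change 0.95, adjusted p of 0.0469 from edgeR), did not pass in KO cores (0.28, adjusted p of 0.579), and had an interaction of -0.66 (95% interval -1.33 to 0.00). The exact permutation tests (two-sided) gave p = 0.120 over 4900 arrangements of the libraries and p = 0.171 over 70 arrangements of the pairs. Sox9, the cartilage transcription factor, rose in both genotypes, by a log2 fold change of 0.66 in WT (adjusted p of 0.0469 from edgeR) and of 0.70 in KO cores (adjusted p of 0.0313), and its interaction of 0.03 had a 95% interval of -0.43 to 0.50. In bulk RNA, fewer cells of a type and less RNA per cell cannot be told apart, and this holds for all groups of genes described here.

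**Figure D2:**
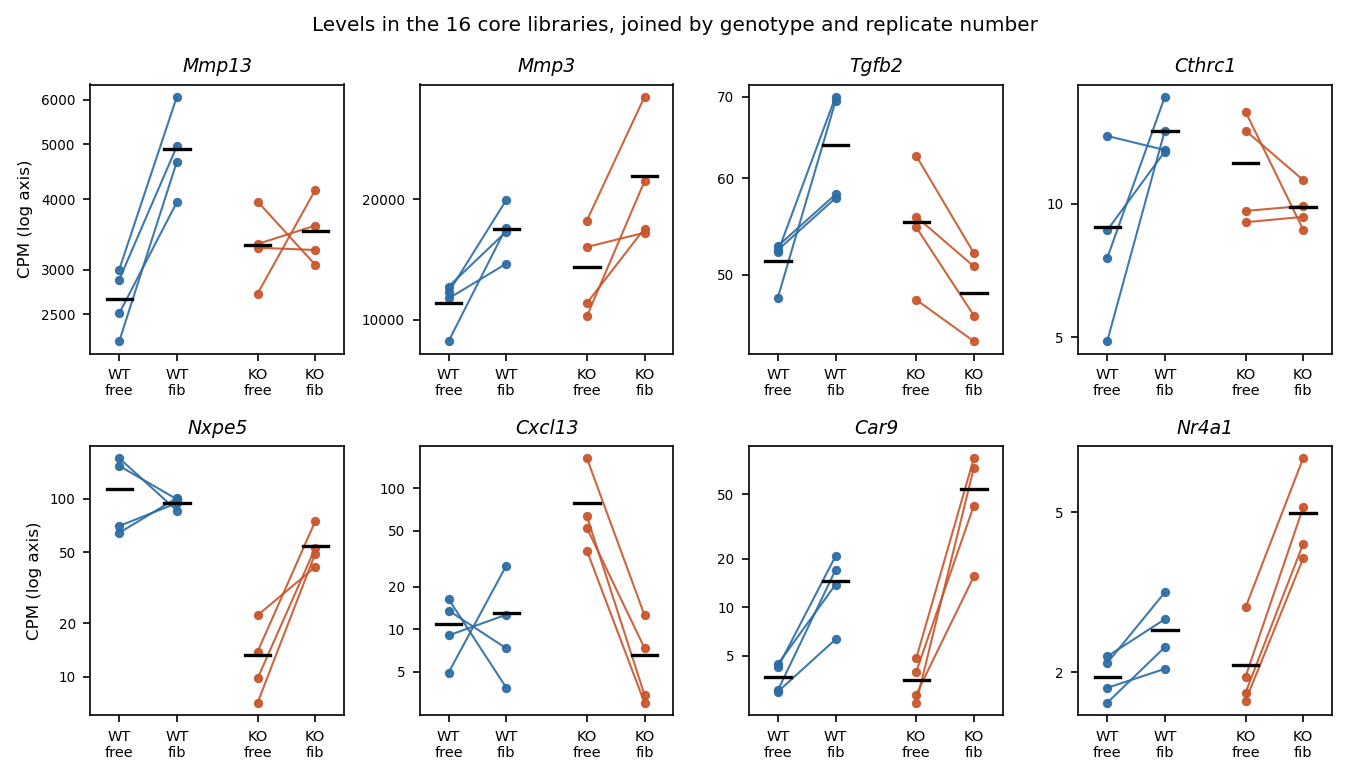
Levels of 8 genes in CPM on log axes, with 1 point per core library, lines joining the cell-free (free) and fibroblast (fib) cores of the same genotype and replicate number, and black bars for the group means (n = 4). Mmp13 and Tgfb2 lines rise in all 4 WT pairs, Nxpe5, Car9 and Nr4a1 lines rise in all 4 KO pairs, and the KO lines of Cxcl13 all fall from 36.1 CPM or more to 12.6 CPM or less.

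The lowest median interaction of the pathway lists belonged to interferon-stimulated genes, which cells turn on against viruses in answer to interferons. Of 44 members tested, 42 had an interaction below 0, with a median of -0.48 against -0.00 for all genes. The median response to fibroblasts was -0.47 in WT cores and -1.05 in KO cores. At an adjusted p under 0.05 from edgeR, 24 of the 44 members fell in KO cores and 0 fell in WT cores. Of all genes, 0.721% fell in KO and 0.256% in WT cores, shares that also required a log2 fold change beyond 0.5. The member counts did not require it. An unadjusted interaction p under 0.05 was found for 7 members, all below 0 (1.62% of all genes), and 0 passed after adjustment. In 10 of the 44 members, every KO pair fell short of every WT pair, against 1.01% of all genes (and 1.16% with every KO pair above). The median over members was -0.32, -0.39, -0.48 and -0.66 in WT pairs 1 to 4 and -0.73, -0.78, -0.75 and -1.53 in KO pairs 1 to 4, so that the genotypes did not overlap and KO pair 4 stood furthest out. Without 1 library at a time, the median interaction ranged from -0.64 to -0.35. Interferon-stimulated genes share their regulators, so the members are not independent of each other. This list, like the others, was chosen with earlier results of these data known. Its shares beside those of all genes are therefore no independent evidence.

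The median difference between KO and WT cores over the list was 0.57 beside cell-free hydrogels and 0.10 beside fibroblasts. Iigp1, an interferon-induced GTPase against intracellular parasites, read 10.3, 19.4, 13.8 and 18.4 CPM and then 11.9, 16.2, 9.08 and 15.1 CPM in WT cores without and with fibroblasts. It read 32.1, 28.6, 37.9 and 52.3 CPM and then 18.6, 10.9, 24.9 and 8.81 CPM in KO cores, for an interaction of -0.998 (-1.89 to -0.10). Cxcl9, a chemokine induced by interferon gamma, was at or below 1.38 CPM in every library of the other groups but read 4.81, 1.56, 4.75 and 4.48 CPM in KO core // cell-free (interaction -1.72, 95% interval -3.04 to -0.40). Leukocyte markers had a median interaction of 0.01 over 16 members. It was -0.16 without KO core // cell-free replicate 2 and 0.32 without KO core // cell-free replicate 1, so its direction was not resolved. The part of leukocytes in the interferon values was not tested.

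Ifit3b, an interferon-induced protein with tetratricopeptide repeats, is shown with its gene start because it holds a match to the response element through which interferons are known to act. It read 8.19, 12.4, 7.21 and 12.1 CPM in WT core // cell-free, 6.77, 6.86, 5.2 and 8.94 CPM in WT core // fibroblasts, 18.0, 13.4, 22.5 and 23.6 CPM in KO core // cell-free and 9.63, 4.22, 9.41 and 4.43 CPM in KO core // fibroblasts. All 8 pairs moved downward, and the KO pairs moved further than each of the WT pairs, with an interaction of -0.95 (95% interval -1.78 to -0.11). Ifit3b has close paralogs among which the authors' counting may have split reads. The 250 bases before its start lie at chr19:34607707-34607956 on the plus strand (RefSeq, GRCm38.p6), with matches to the core of the interferon-stimulated response element in capitals.
Ifit3b: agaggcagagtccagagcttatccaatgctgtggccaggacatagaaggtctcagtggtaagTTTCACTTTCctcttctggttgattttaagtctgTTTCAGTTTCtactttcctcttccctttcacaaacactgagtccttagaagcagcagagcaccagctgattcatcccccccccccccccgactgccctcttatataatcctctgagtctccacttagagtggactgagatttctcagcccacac

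The core was searched as GAAA, a gap of 2 bases of any kind and GAAA again, on both strands. It matched 2 times, 188 and 154 bases before the start, and 2.98% of all windows held at least 1 match. Only 32 of the 44 members had a window in the table, too few for a count over the list.

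Genes of the hypoxia response lay on the other side of 0. They are turned on by HIF transcription factors when oxygen is short and include glucose transporters, glycolytic enzymes and Car9. Of 29 members tested, 23 had an interaction above 0, with a median of 0.31. An unadjusted p under 0.05 was reached by 4, all 4 above 0 (1.38% of all genes). At an adjusted p under 0.05 from edgeR, 11 members rose in WT and 20 in KO cores. The shares of all genes, 0.936% in WT and 1.09% in KO cores, also required a log2 fold change beyond 0.5, unlike the member counts. The median responses of the list were 0.88 and 1.06. Its pair medians overlapped, at 1.02, 0.82, 0.89 and 0.46 in WT pairs 1 to 4 and 1.02, 1.19, 0.66 and 1.18 in KO pairs. Without KO core // fibroblasts replicate 2, the median interaction of this list was 0.18.

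Car9 (carbonic anhydrase 9, a surface enzyme that buffers acid) read 3.06, 4.24, 4.44 and 3.00 CPM in WT core // cell-free and 17.0, 20.7, 13.8 and 6.32 CPM in WT core // fibroblasts. In KO cores, it read 3.98, 4.82, 2.88 and 2.56 CPM without and 42.6, 83.6, 15.5 and 73.0 CPM with fibroblasts. The cell-free groups were alike, and 3 of the 4 KO cores with fibroblasts exceeded every WT core. The log2 fold change was 1.98 in WT (adjusted p of 0.0398 from edgeR) and 3.91 in KO cores (adjusted p of 0.00200), and the interaction was 1.93 (95% interval 0.64 to 3.23, adjusted p of 0.985). The exact permutation tests (two-sided) gave p = 0.0531 over 4900 arrangements of the libraries and p = 0.0571 over 70 arrangements of the pairs, for a gene that is also among those named for the lowest p. The 250 bases before the start of Car9, at chr4:43506776-43507025 on the plus strand (RefSeq, GRCm38.p6), are printed with the core of the hypoxia response element in capitals.
Car9: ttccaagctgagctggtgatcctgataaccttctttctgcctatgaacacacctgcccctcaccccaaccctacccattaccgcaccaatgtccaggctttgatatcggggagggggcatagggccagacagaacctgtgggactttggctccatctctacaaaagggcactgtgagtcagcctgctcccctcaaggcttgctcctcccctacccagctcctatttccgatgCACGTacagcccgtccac

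The core was searched as ACGTG on both strands and lay 18 bases before the start. So short a motif is common: 16.6% of all windows held it. Of 30 listed hypoxia genes, 25 had a window, and 18 of these (72%) held the core, against 18.5% of all gene symbols. The list is one of genes turned on by HIF, so this share does not bear on the interaction.

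The other hypoxia genes with a low p had smaller values. Pfkfb3, an enzyme that speeds glycolysis, read 56.0, 52.5, 78.4 and 47.8 CPM and then 88.4, 92.8, 79.2 and 73.1 CPM in WT cores without and with fibroblasts. KO cores held 48.6, 57.9, 41.5 and 55.9 CPM and then 126, 120, 79.5 and 103 CPM. It rose in KO cores (log2 fold change 1.07, adjusted p of 0.00478 from edgeR), had 0.51 in WT cores (adjusted p of 0.132), and its interaction was 0.56 (95% interval 0.08 to 1.05). Ndrg1 and Kdm3a, a stress-induced gene and a histone demethylase, had interactions of 0.34 (0.04 to 0.65) and 0.23 (0.01 to 0.45). Glycolysis genes had a median interaction of 0.23, with 20 of 22 above 0. Over all 22 members, 5 rose in WT and 11 in KO cores at an adjusted p under 0.05 from edgeR. The shares of all genes, 0.936% in WT and 1.09% in KO cores, also required a log2 fold change beyond 0.5, unlike the member counts. The median interaction was 0.37 without KO core // fibroblasts replicate 3 and 0.155 without KO core // fibroblasts replicate 2.

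**Figure D3:**
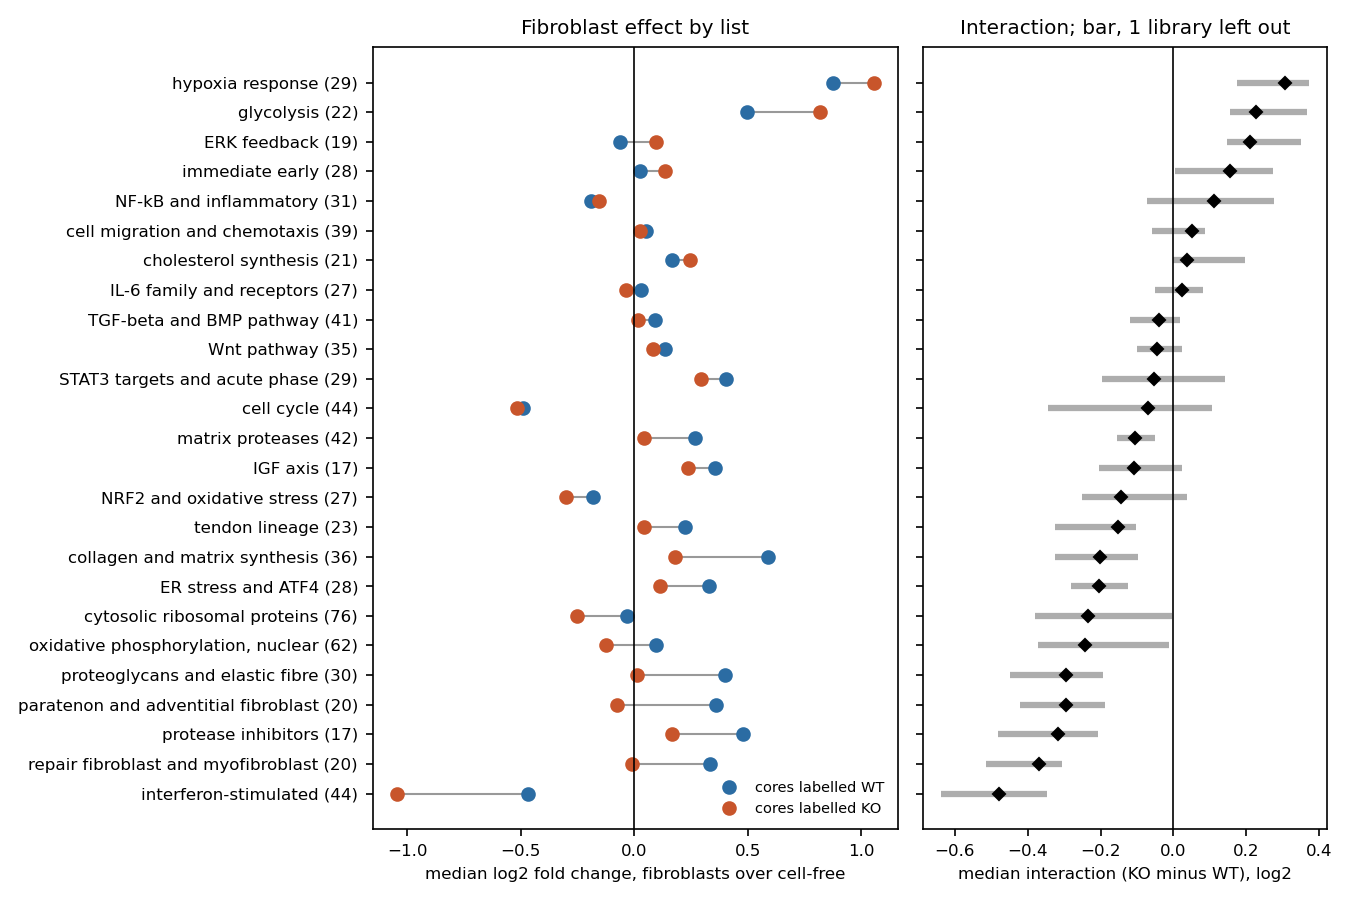
Left, median log2 fold change between cores with fibroblasts and cell-free cores for 25 gene lists (tested members in parentheses) in WT and KO cores. Right, median interaction of each list (diamond) with the lowest and highest median when 1 of the 16 libraries was left out (gray bar). Interferon-stimulated genes lie at -0.48 and the hypoxia response at 0.31, and the bars of the IL-6 family, STAT3, NF-kB, Wnt, TGF-beta, IGF, migration, cell cycle, cholesterol and NRF2 lists span 0.

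Signaling lists close to IL-6 lay near 0. The IL-6 family, its receptors and their kinases had a median interaction of 0.02 over 27 genes, with 14 above 0. STAT3 targets and acute phase genes had one of -0.05 over 29 genes, with 0 members at an unadjusted p under 0.05. Of all genes, 1.38% lay above 0 and 1.62% below at such a p. The extreme members of the first list were Gab2, an adaptor downstream of gp130, at 0.32 (95% interval 0.03 to 0.62), Il11ra1, the IL-11 receptor, at -0.43 (-0.91 to 0.05), and the cytokine Cntf at -0.55 (-1.24 to 0.14). NF-kB and inflammatory genes had a median of 0.11, which was -0.07 without KO core // fibroblasts replicate 4. Within that list, Nfkbiz, a nuclear regulator that is induced by inflammatory signals and acts on the Il6 gene, read 59.3, 54.1, 62.5 and 54.0 CPM and then 67.5, 76.9, 57.4 and 60.1 CPM in WT cores. In the KO groups, the level was 45.8, 64.4, 58.0 and 66.4 CPM and then 86.4, 91.8, 83.1 and 115 CPM, so that all 4 KO cores with fibroblasts were above every other core. Nfkbiz rose in KO cores (log2 fold change 0.68, adjusted p of 0.0123 from edgeR) and had an interaction of 0.50 (0.11 to 0.88). Nod2, a sensor of bacterial cell walls, stood at 0.63 (0.15 to 1.11), and Vcam1, a leukocyte adhesion molecule, at -0.69 (-1.24 to -0.15).

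Immediate early genes, the first that cells transcribe after a stimulus, had 21 of 28 members above 0 with a median of 0.16. Feedback genes of the ERK kinase pathway had 14 of 19 above 0 with a median of 0.21. That median was 0.35 without WT core // fibroblasts replicate 2 and 0.147 without KO core // cell-free replicate 1. Nr4a1, an orphan nuclear receptor, read 1.68, 2.19, 2.11 and 1.83 CPM in WT core // cell-free and 2.31, 2.71, 3.16 and 2.04 CPM in WT core // fibroblasts. Its level in KO cores was 1.70, 1.78, 1.95 and 2.90 CPM without and 3.84, 4.17, 5.14 and 6.81 CPM with fibroblasts. All 8 pairs moved upward, the KO pairs by more than each WT pair, and the interaction was 0.88 (95% interval 0.23 to 1.52, adjusted p of 0.985 from edgeR). Its relative Nr4a2 had an interaction of 1.02 (0.13 to 1.92), and Spry2, an inhibitor of receptor tyrosine kinase signaling, one of 0.46 (0.06 to 0.87). Without WT core // cell-free replicate 4, the median of the immediate early list was 0.00.

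Among the growth factors, the TGF-beta and BMP pathway had a median interaction of -0.04 over 41 genes, with 19 above 0. Tgfb2, a TGF-beta ligand of tendon development, read 52.8, 52.4, 47.9 and 52.2 CPM in WT core // cell-free and 58.2, 57.8, 69.4 and 70 CPM in WT core // fibroblasts, against 55.8, 54.7, 62.6 and 47.7 CPM and then 50.8, 46.3, 52.1 and 44.1 CPM in KO cores. The 4 WT pairs all moved upward and the 4 KO pairs all downward, although neither response passed on its own (log2 fold changes of 0.32 and -0.19, adjusted p of 0.0978 and 0.336 from edgeR). The interaction was -0.51 (95% interval -0.78 to -0.23, adjusted p of 0.985). Inhba and Inhbb, the chains of activins, had interactions of 0.67 (0.03 to 1.31) and 0.84 (0.05 to 1.63). Median interactions were -0.04 for 35 Wnt pathway genes, -0.11 for 17 genes of the IGF axis and 0.05 for 39 genes of cell migration. Genes of the NRF2 response to oxidative stress and of cholesterol synthesis had medians of -0.14 and 0.04 over 27 and 21 members. Without KO core // cell-free replicate 1, these were 0.04 and 0.20, and that of the IGF axis was 0.02.

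Ribosomal protein genes and nuclear genes of oxidative phosphorylation had medians that shifted strongly when single libraries were left out. All 76 ribosomal protein genes had an interaction below 0, with a median of -0.24, and so did 60 of 62 oxidative phosphorylation genes, with a median of -0.24. Without KO core // cell-free replicate 1, the medians were -0.00 and -0.01. Without both that library and WT core // cell-free replicate 4, they were -0.16 and -0.11. The ribosomal median was -0.38 without WT core // cell-free replicate 4 alone. The pair medians of the ribosomal genes were -0.01, 0.02, 0.25 and -0.31 in WT cores and -0.85, 0.27, -0.14 and -0.12 in KO cores. KO pair 1 holds KO core // cell-free replicate 1. Cell cycle genes had a median of -0.07, which ranged from -0.34 without WT core // cell-free replicate 4 to 0.11 without WT core // cell-free replicate 3. Genes of the unfolded protein response and ATF4, which respond to amino acid and folding stress, had 26 of 28 members below 0 with a median of -0.20, and of -0.13 without KO core // cell-free replicate 1. Asns, the asparagine synthetase, rose in WT cores (log2 fold change 0.86, adjusted p of 0.0209 from edgeR) and had an interaction of -0.52 (-1.002 to -0.04), and Phgdh, the entry enzyme of serine synthesis, one of -0.78 (-1.55 to -0.02).

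**Figure D4:**
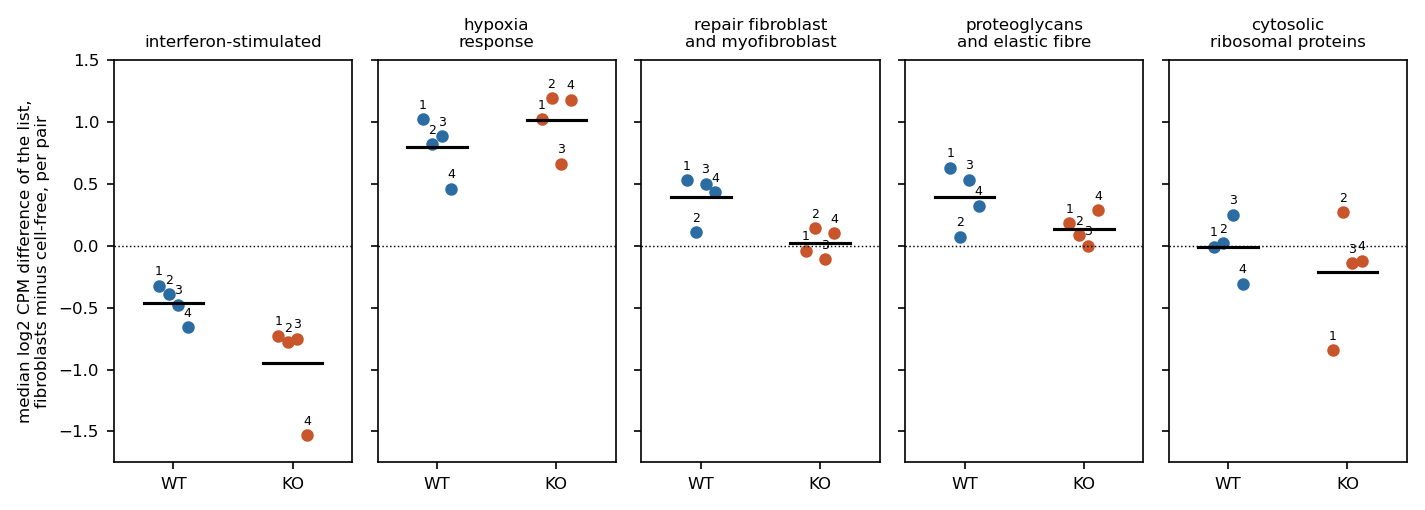
Median log2 CPM difference between the fibroblast and the cell-free core over the members of 5 gene lists, with 1 point per pair numbered by replicate and bars for the mean of the 4 pairs. The interferon-stimulated medians lie between -0.32 and -0.66 in WT and between -0.73 and -1.53 in KO pairs, whereas the low mean of the ribosomal list in KO cores rests on pair 1 at -0.85.

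The genes named for the lowest p, 12 on each side, were led by Nxpe5 and Cxcl13. Nxpe5 read 169, 70.3, 153 and 64.3 CPM in WT core // cell-free and 85.8, 94.5, 99.4 and 101 CPM in WT core // fibroblasts. The KO libraries read 22.1, 13.8, 9.76 and 7.12 CPM without and 41.3, 74.7, 52.8 and 49.1 CPM with fibroblasts. The cell-free KO cores stood apart below all other cores, and all 4 KO cores beside fibroblasts were below the WT cores beside them. Nxpe5 rose in KO cores (log2 fold change 2.03, adjusted p of 0.00816 from edgeR), had -0.26 in WT cores (adjusted p of 0.755), and was lower in cell-free KO than in cell-free WT cores (log2 fold change -3.10, adjusted p of 0.00303). The interaction was 2.29 (95% interval 1.29 to 3.29). It did not pass in edgeR (unadjusted p of 0.000172, adjusted p of 0.985), whereas DESeq2 gave 2.30 with an adjusted p of 0.0141 and limma with library weights gave 2.73 with an adjusted p of 0.0466. Nxpe5 belongs to a family of similar genes, and reads that fit several of them could have been split by the authors' counting.

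Cxcl13, the chemokine that attracts B cells, read 4.94, 16.4, 13.6 and 9.06 CPM in WT core // cell-free and 28.2, 3.87, 7.35 and 12.7 CPM in WT core // fibroblasts. In KO cores, it read 163, 63.3, 52.2 and 36.1 CPM without and 12.6, 3.43, 7.37 and 3.02 CPM with fibroblasts. The cell-free KO cores were above all other cores, and the other 3 groups overlapped. Cxcl13 fell in KO cores (log2 fold change -3.54, adjusted p of 0.0110 from edgeR), and its interaction was -3.79 (95% interval -5.63 to -1.96, adjusted p of 0.985). The exact permutation tests (two-sided) gave p = 0.00612 over 4900 arrangements of the libraries and p = 0.0286 over 70 arrangements of the pairs, which is no independent evidence for a gene named by its p.

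The other genes above 0 varied in function. Nxph4, a neurexophilin, rose in both genotypes, from 1.02 to 1.94 CPM without and 3.30 to 4.13 CPM with fibroblasts in WT cores, and from 0.861 to 1.52 CPM without and 4.10 to 10.4 CPM with fibroblasts in KO cores (interaction 1.42, 95% interval 0.58 to 2.26). Map3k1, a kinase upstream of JNK, rose in KO cores (log2 fold change 0.56, adjusted p of 0.0236 from edgeR) and had -0.03 in WT cores, and its interaction was 0.59 (0.23 to 0.95). Arid5a, an RNA-binding protein known to stabilise Il6 mRNA, stood at 0.67 (0.22 to 1.13), and Jak3, the kinase of lymphocyte cytokine receptors, at 0.77 (0.23 to 1.32). Ptpn1, a phosphatase of the insulin receptor and of JAK kinases, had 0.34 (0.12 to 0.57). The remaining ones were the receptor Gpr146 at 0.80, the spectrin Sptb at 0.80, the lysosomal transporter Atp13a2 at 0.54, the lipid transfer protein C2cd2l at 0.48 and the actin regulator Raph1 at 0.41.

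Below 0, Mmp13 and Tgfb2 were joined by Vstm4 (-0.74, 95% interval -1.13 to -0.36), Tmem150a (-0.67, -1.04 to -0.29) and Bcat1 (-0.65, -1.06 to -0.23), the enzyme that starts the breakdown of branched-chain amino acids. These 3 rose in WT cores, by log2 fold changes of 0.54, 0.53 and 0.87 (adjusted p of 0.0491, 0.0469 and 0.0120 from edgeR), and had -0.20, -0.14 and 0.22 in KO cores. Sema3c, a secreted guidance cue and a marker of adventitial fibroblasts, stood at -0.62 (-1.02 to -0.22) and Rhod, a small GTPase, at -0.69 (-1.10 to -0.27). Tnfsf15, a TNF family cytokine, fell in KO cores (log2 fold change -0.87, adjusted p of 0.0380 from edgeR) and had an interaction of -0.98 (-1.59 to -0.37). Yipf5, Pus7l and Ppfibp2 had values of -0.34, -0.52 and -0.46. The adjusted p from edgeR was 0.985 for all 24 genes.

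Markers of other tissues were looked at for their own interaction. Skeletal muscle genes had a median of -0.41 over 10 members, with Myh1, Myh2 and Myh4, the fast and related myosin heavy chains, at -2.44 (95% interval -4.02 to -0.85), -2.98 (-5.19 to -0.77) and -3.004 (-5.19 to -0.82). The median of the list was -0.86 without KO core // fibroblasts replicate 1 and -0.22 without KO core // cell-free replicate 1, and without the latter Myh2 and Myh4 were at -1.98 and -1.97. The summed level of the 12 muscle markers was 20.6 to 40.6 CPM in WT core // cell-free, 29.8 to 49.7 CPM in WT core // fibroblasts, 25.8 to 97.6 CPM in KO core // cell-free and 22.2 to 63.6 CPM in KO core // fibroblasts, so that muscle RNA was scarce in all cores. The 3 myosin genes lie side by side and share sequence, and their counts are not independent. Chondrocyte markers had a median of -0.45 over 8 tested members, with summed levels of 100 to 253 CPM in WT and 87.4 to 133 CPM in KO cores beside fibroblasts, and tenocyte markers one of -0.35 over 10. Without 1 library, these medians came down to -0.28 (WT core // fibroblasts replicate 4) and -0.21 (KO core // fibroblasts replicate 3). Endothelial, smooth muscle and Schwann cell markers had medians of 0.07, 0.06 and -0.04 over 10, 10 and 9 members. Adipocyte markers had a median of -0.19 over 4 tested members, which was 0.08 without KO core // cell-free replicate 1. Of 9 keratinocyte and 13 lymphocyte, neutrophil and mast cell markers, 2 each could be tested, with medians of -0.41 and -0.62, which were -0.25 without KO core // fibroblasts replicate 1 and -0.29 without KO core // cell-free replicate 4.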

How the data were processed

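Total RNA of 16 core compartments was sequenced as stranded, ribosome-depleted libraries. Per the labels and the submitters' processing notes, the authors quantified the reads with kallisto (0.46.1) against GRCm39, and the deposited values are estimated counts per gene. The annotation release was not given in the sources used here. Estimated counts were rounded to whole numbers, and 25587 of the 25700 gene IDs had a symbol. Genes were filtered with filterByExpr and libraries scaled by TMM. The quasi-likelihood test of edgeR (4.0.16, R 4.3.3) was fitted to 4 groups without covariates and adjusted after Benjamini-Hochberg over all 16772 genes. Calls needed an adjusted p under 0.05 and a fold change beyond 0.5 on the log2 scale. The 95% intervals come from the same fit, and pair differences are in log2 CPM with a prior count of 2. DESeq2 (1.42.0) and limma (3.58.1) were alternatives, and the fits were tested on simulated data. P-values and 95% intervals of the edgeR fit to 4 groups rest on the spread between libraries of a group, each from a single mouse. They do not take the pairs into account, whereas the fit with pairs as blocks does.

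Libraries of the same genotype and replicate number were treated as pairs because all 8 within-genotype correlations of their deviations were over 0.1 (0.19 to 0.57) and because Y-linked genes put both on the same sex. Between genotypes, the correlations ran from -0.22 to 0.61 and not all were over 0.1, while same-numbered libraries of both genotypes carried the same run code. Named were Il6, the 12 genes with the lowest p on each side among genes with a mean log2 CPM of at least 1, the genes the study names for cores, and up to 4 members of each list with the lowest p. Members and gene lists were chosen with earlier results of these data known. Of the other 16 libraries, the fifth core group entered 1 alternative fit and the hydrogels only the Y-linked values. Promoter windows were taken from RefSeq (GRCm38.p6) by gene symbol.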

Additional observations from a re-analysis of the deposited data

Results flagged for a closer look

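A library stood far from the other 3 of its group in 12 of 272 groups of 4 libraries. The 272 were 4 groups for each of 68 genes. Chance flags about 1 group in 20 among independent groups. Most of these genes were chosen by values of the same libraries and are not independent, so that rate cannot judge the 12. In KO core // cell-free, replicate 4 read 20.8 CPM for Il6 against at most 8.98 CPM in the others, and 51.6 CPM for Sema3c against at least 76.7 CPM. Replicate 2 of the same group read 9.85 CPM for Jak3 against at most 7.79 CPM, and 1.56 CPM for Cxcl9 against at least 4.48 CPM.

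In KO core // fibroblasts, replicate 4 read 35.3 CPM for Arid5a against at most 27.1 CPM in the others. Replicate 2 read 39.6 CPM for Mfap4 against at most 17.7 CPM and 1.62 CPM for Lrrc17 against at most 1.13 CPM. In WT core // cell-free, Tgfb2 was at 47.9 CPM in replicate 3 against at least 52.2 CPM, Acta2 at 35.3 CPM in replicate 4 against at most 14.7 CPM, and Myh1 and Myh2 at 9.74 and 7.91 CPM in replicate 2 against at most 3.72 and 2.14 CPM. In WT core // fibroblasts, Tnfsf15 was at 3.42 CPM in replicate 4 against at most 2.31 CPM. Whether anything beyond chance set these libraries apart was not tested.

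The response of Nxpe5 to fibroblasts differed between the genotypes by DESeq2 (log2 fold change 2.30, adjusted p of 0.0141) and by limma with library weights (2.73, adjusted p of 0.0466), but not by edgeR (2.29, adjusted p of 0.985). It was above 0 in 4 of 4 KO pairs and 2 of 4 WT pairs.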

How the results depend on the processing

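The interaction called 0 genes in edgeR, and 0 also with RLE size factors, without the filter, with at least 10 counts in every library, with a replicate block (across genotypes or within them), with the run code or the sex of the mouse as a term, in 1 run code alone, with the fifth core group in the fit, without a fold change threshold and at an adjusted p under 0.1. DESeq2 and limma with library weights each called 1 gene. Leaving out 1 library, or 1 pair under the replicate block within genotype, gave 0 to 2 genes. The 2 genes, Cpz and Myh4, were called without WT pair 2. The block was read within genotypes only.

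At an unadjusted p under 0.05 with a fold beyond 0.5, edgeR gave 294 genes. The count was 58 at p under 0.01, 884 with library weights, 585 without the filter, 443 under the replicate block within genotype and 443 in 1 run code alone, and it ranged from 221 to 802 with libraries or pairs left out. It was 666 without WT core // cell-free replicate 4, 599 without KO core // cell-free replicate 2, and, under the block, 802, 713, 573 and 547 without WT pair 4, KO pair 2, WT pair 2 and KO pair 4. The cause was not tested.

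Of the 68 genes recomputed, 4 changed sign. With libraries or pairs left out, Il6 ranged from -0.25 to 1.03, Mmp3 from -0.16 to 0.31, Mmp9 from -0.61 to 0.36 and Sox9 from -0.061 to 0.17. Mmp9 was 0.52 in 1 run code alone, and Sox9 was -0.079 with library weights. With n = 4, small interactions were not detectable.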

Other observations

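Y-linked genes (Ddx3y, Eif2s3y, Kdm5d and Uty, summed) gave values outside the interaction. The sums were 237 to 285 CPM in cores from male mice. In cores from female mice they read 0.519, 0.097, 1.19 and 1.16 CPM beside cell-free hydrogels and 0.585, 1.47, 0.517 and 3.62 CPM beside fibroblasts (WT 1, WT 2, KO 1 and KO 3). The fibroblast hydrogels around these 4 female cores read 22.5, 42.4, 15.8 and 45.9 CPM, and those around the 4 male cores 145 to 154 CPM. A female core held at most 7.88% of the level of its hydrogel. Reads from the hydrogel, from cells that had moved and from the handling of both compartments cannot be told apart.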
